A study of Mus musculus with 6 samples.

Results

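The 10 core enzymes of glycolysis Hk2, Gpi1, Pfkp, Aldoa, Tpi1, Gapdh, Pgk1, Pgam1, Pkm and Ldha were followed by gene name, and each had 1 row among the 47729 genes of every library. All 10 were among the 13372 genes tested, whose mean level reached 1 TPM (a level corrected for transcript length that sums to 1000000 in each library). RNA sequencing had been run on activated CD8+ T cells of mouse spleen, 3 libraries from cells given blebbistatin at 2 µM for 24 h and 3 from cells given vehicle for 24 h. Blebbistatin inhibits myosin II, the motor protein that pulls on actin filaments, and the series title asks about the effect of a drug on the cytoskeleton of CD8+ T cells. The vehicle is abbreviated as pbs in the deposited files and not described further. The mouse strain, the activating stimulus and the animals or cultures behind the replicates are not given in the labels, so p-values measure only the spread between these libraries, which may be technical.

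Glycolysis splits glucose into pyruvate in the cytosol. In its early steps ATP is spent to phosphorylate the sugar and cut it into triose phosphates, and in its later steps the trioses are oxidised and ATP is regained, while lactate dehydrogenase turns pyruvate into lactate and restores NAD+. T cells raise this pathway strongly on activation, and MYC and HIF1 are known to drive many of its genes.

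Each library held 18500000 to 19900000 fragments, as implied by its coverage. Hk2, the member with the lowest level, was covered by 653 to 682 fragments per kb of transcript in the blebbistatin libraries and 667 to 817 in the vehicle libraries, which gives a counting error of 3.50% to 3.91% per kb. All 9 CD8 T cell markers, a list that includes granzyme B (Gzmb), were present. Of these 1 was called lower, where 0.426% of all tested genes were. Summed levels were 9879 to 10659 TPM in blebbistatin libraries and 11193 to 11400 TPM in vehicle libraries. Cd8a lay apart in the other direction, at 426 to 433 TPM with blebbistatin and 409 to 415 TPM with vehicle, and was not called. Cd3e overlapped, so the sum does not describe each marker. A trend with transcript GC content was strongest in blebbistatin 1 and weaker in blebbistatin 3, and is described with the results it touches. In bulk RNA, fewer cells of a kind and less RNA per cell cannot be told apart.

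The enzymes were abundant in both groups. The 10 together took 1.54%, 1.63% and 1.64% of all TPM in blebbistatin 1, 2 and 3, against 1.81%, 1.76% and 1.76% in vehicle 1, 2 and 3. Ldha ranked 23 and Gapdh 33 in mean level among all tested genes, while Hk2 ranked 2219. These shares and ranks, and the order of levels, are of the gene rows alone. Those of Gapdh depend on how reads shared with its near-identical copies, described below, were assigned. In the blebbistatin libraries the order of levels was Ldha, Gapdh, Pkm, Pgk1, Aldoa, Tpi1, Pgam1, Gpi1, Pfkp and Hk2. The ranges of neighbours did not overlap. In the vehicle libraries Aldoa at 2118 ± 61.2 TPM and Pgk1 at 2108 ± 88.0 TPM (SD, n = 3) overlapped and could not be ordered, and the other neighbours stood in the same order as with blebbistatin.

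With blebbistatin the mutase Pgam1 fell, 1 of the 10 enzymes, and none rose, by limma on log2(TPM + 1) with Benjamini-Hochberg adjustment over all tested genes at 0.05. Of all tested genes 1.82% were called, 0.426% lower and 1.4% higher. At an unadjusted p under 0.05, 7 enzymes were lower and 0 higher, where 9.99% of tested genes were lower and 12.9% higher. For 9 of the 10, every one except Pgk1, all 3 blebbistatin libraries lay below all 3 vehicle libraries, against 13% of tested genes, and 18% of tested genes lay apart in the other direction. The median log2 fold change of the 10 was -0.17, with 0.03 for all tested genes.

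**Figure D1:**
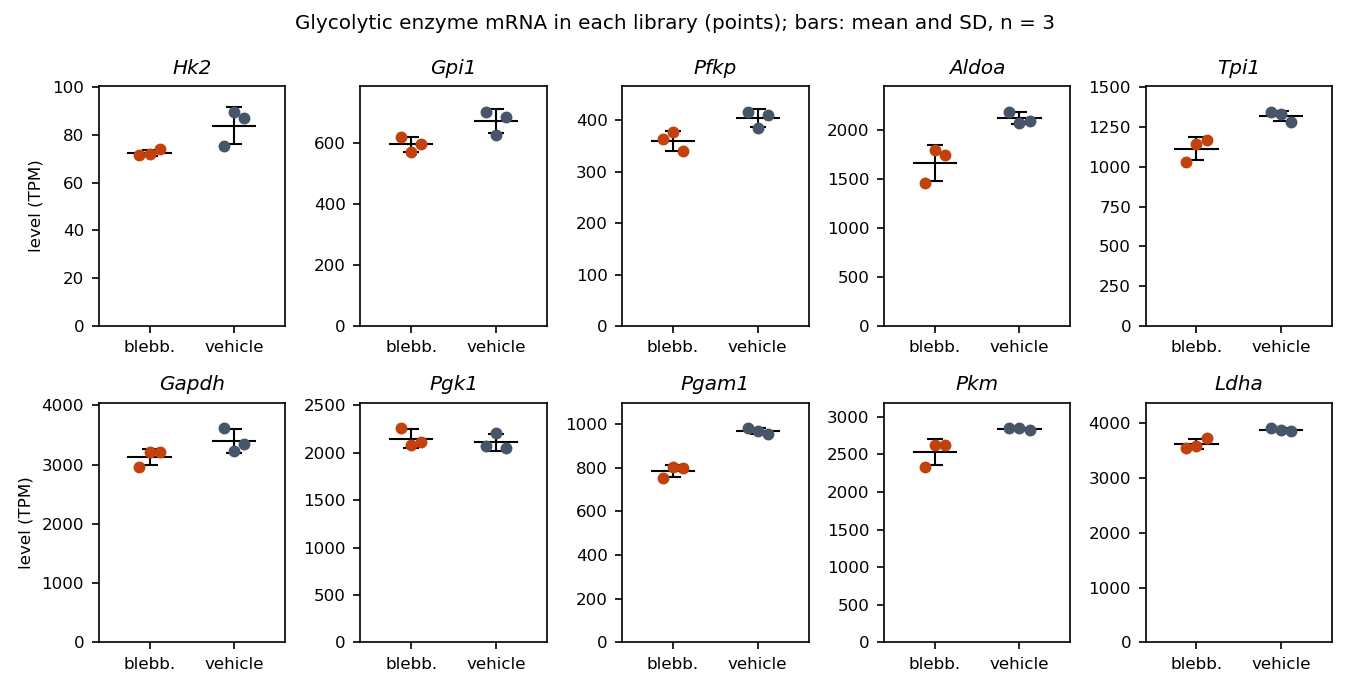
Level in TPM (vertical axes, from 0) of the 10 enzymes in each blebbistatin and vehicle library, with points for libraries and bars for the mean and SD of 3. Points of the groups are separate in 9 panels and overlap for Pgk1, and the gap is widest relative to the spread for Pgam1, at 786 TPM with blebbistatin and 968 TPM with vehicle.

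The early enzymes that spend ATP and split the sugar were lower in the blebbistatin libraries without passing the test, though Aldoa and Tpi1 passed under other settings given with their values. Hk2, the inducible hexokinase that traps glucose as glucose 6-phosphate, had 71.4, 72.1 and 73.9 TPM in blebbistatin 1, 2 and 3 and 75.1, 89.7 and 86.8 TPM in vehicle 1, 2 and 3. The groups did not overlap, but vehicle 1 lay close to the treated libraries. Gpi1, which turns glucose 6-phosphate into fructose 6-phosphate, had 620.2, 569.8 and 597 TPM with blebbistatin and 703, 627 and 686 TPM with vehicle. Pfkp, the platelet-type subunit of phosphofructokinase, the committed step, had 363, 378 and 339.8 TPM with blebbistatin and 417, 385 and 411 TPM with vehicle. For both, the highest blebbistatin library lay close under the lowest vehicle library, vehicle 2. The log2 fold changes were -0.20 for Hk2 (adjusted p = 0.18 by limma), -0.17 for Gpi1 (adjusted p = 0.16) and -0.17 for Pfkp (adjusted p = 0.16).

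Aldoa, the aldolase that cuts fructose 1,6-bisphosphate, had 1457, 1797 and 1747 TPM with blebbistatin and 2187, 2071 and 2096 TPM with vehicle. Its point estimate was the lowest of the 10, at a log2 fold change of -0.35 (95% interval -0.54 to -0.16, adjusted p = 0.086 by limma), and blebbistatin 1 lay far below the other treated libraries. Without blebbistatin 1 the log2 fold change was -0.26 and passed (limma, adjusted p = 0.046), and without blebbistatin 2 it was -0.41 and passed (adjusted p = 0.037), in fits that called 0.232% and 4.44% of all genes lower. Without blebbistatin 3 or vehicle 1, 2 or 3 it did not pass (adjusted p of 0.19 to 0.24 by limma). Tpi1, which interconverts the triose phosphates, had 1030.5, 1140.4 and 1169 TPM with blebbistatin and 1346, 1329.8 and 1281.5 TPM with vehicle. Its log2 fold change was -0.25 (95% interval -0.38 to -0.11, adjusted p = 0.088 by limma), and blebbistatin 1 was again the lowest library.

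Among the later enzymes, Pgam1, which moves the phosphate of 3-phosphoglycerate to position 2, had 754, 805 and 799.5 TPM in blebbistatin 1, 2 and 3, against 981, 967 and 956 TPM in vehicle 1, 2 and 3. The highest treated library, blebbistatin 2, lay well below the lowest vehicle library, vehicle 3. Its mean of 786 ± 27.8 TPM with blebbistatin was 18.8% under the 968 ± 12.6 TPM with vehicle (SD, n = 3 each), a log2 fold change of -0.30 (SE 0.05, 95% interval -0.41 to -0.19, limma adjusted p = 0.033). The gene lies on chromosome 19 at 41911871 to 41918664 in GRCm38, on the plus strand, and is protein-coding. The call was lost without blebbistatin 3 (adjusted p = 0.14 by limma) and without vehicle 1, 2 or 3 (adjusted p = 0.16, 0.15 and 0.14), while the log2 fold change stayed between -0.32 and -0.27 without any 1 of the 6 libraries. It was also lost with no minimum level (adjusted p = 0.077 by limma), quantile normalization (0.058) and no trend (0.084).

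Pgk1, which makes ATP from 1,3-bisphosphoglycerate in the step before Pgam1, was the exception, with 2259, 2076 and 2114 TPM with blebbistatin and 2069, 2209 and 2047 TPM with vehicle. The groups overlapped, and blebbistatin 1 was the highest of the 6 libraries. Its log2 fold change was 0.03 (95% interval -0.10 to 0.15, adjusted p = 0.78 by limma). It turned to -0.03 once length and GC content were corrected for, to -0.01 without blebbistatin 1 and to -0.00023 with median-ratio scaling, and passed in none of these.

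The promoters of Pgam1 and Pgk1, the enzyme that fell and its neighbour in the pathway with overlapping groups, are shown as the 250 bases before the RefSeq start in build GRCm38.p6, both on the plus strand, at chr19:41911621-41911870 and chrX:106186850-106187099. Capitals mark each ACGTG or its reverse complement CACGT, the core of the hypoxia response element that HIF1 binds.
Pgam1: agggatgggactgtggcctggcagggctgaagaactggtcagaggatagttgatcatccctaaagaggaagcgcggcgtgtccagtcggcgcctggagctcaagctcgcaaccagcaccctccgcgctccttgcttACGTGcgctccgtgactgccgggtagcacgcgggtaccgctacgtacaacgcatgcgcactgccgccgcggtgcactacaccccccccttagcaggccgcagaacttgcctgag
Pgk1: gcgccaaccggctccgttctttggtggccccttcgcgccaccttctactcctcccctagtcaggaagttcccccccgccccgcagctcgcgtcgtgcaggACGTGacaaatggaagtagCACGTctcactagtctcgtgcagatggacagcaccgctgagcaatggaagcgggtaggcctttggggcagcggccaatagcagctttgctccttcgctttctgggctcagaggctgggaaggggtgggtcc
The Pgam1 window held 1 match and the Pgk1 window 2. Of the 10 enzymes 6 had ACGTG on either strand in at least 1 of their RefSeq promoter windows of 250 bases, where 18.5% of 27025 genes did, and 16.6% of all 32851 windows held it. The E-box CACGTG, which MYC binds and which contains ACGTG, was found for 1 enzyme, Ldha, and for 6.86% of genes. The enzymes with neither motif in these windows were Gpi1, Pfkp, Tpi1 and Gapdh, and a match describes the letters only.

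Gapdh, which oxidises glyceraldehyde 3-phosphate, had 2965.5, 3211 and 3209 TPM with blebbistatin and 3614, 3224 and 3344 TPM with vehicle. Vehicle 2 stood only just above the treated libraries, and the log2 fold change of -0.12 did not pass (95% interval -0.26 to 0.03, adjusted p = 0.29 by limma) and was -0.07 without vehicle 1. Pkm, pyruvate kinase, had 2328.5, 2624 and 2627 TPM with blebbistatin and 2846, 2842 and 2821 TPM with vehicle. Its vehicle libraries agreed within 0.48% (coefficient of variation), and blebbistatin 1 was the low library of the treated group. The log2 fold change was -0.17 (limma, adjusted p = 0.16) and -0.11 without blebbistatin 1, and the gene row does not separate the PKM1 and PKM2 splice forms. Ldha, which turns pyruvate into lactate, had 3555, 3581 and 3730.5 TPM with blebbistatin and 3906.5, 3873 and 3863 TPM with vehicle. Its log2 fold change of -0.10 (adjusted p = 0.22 by limma) was small, at -0.16 with quantile normalization, and the 3 vehicle libraries again lay closer together than the treated ones.

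**Figure D2:**
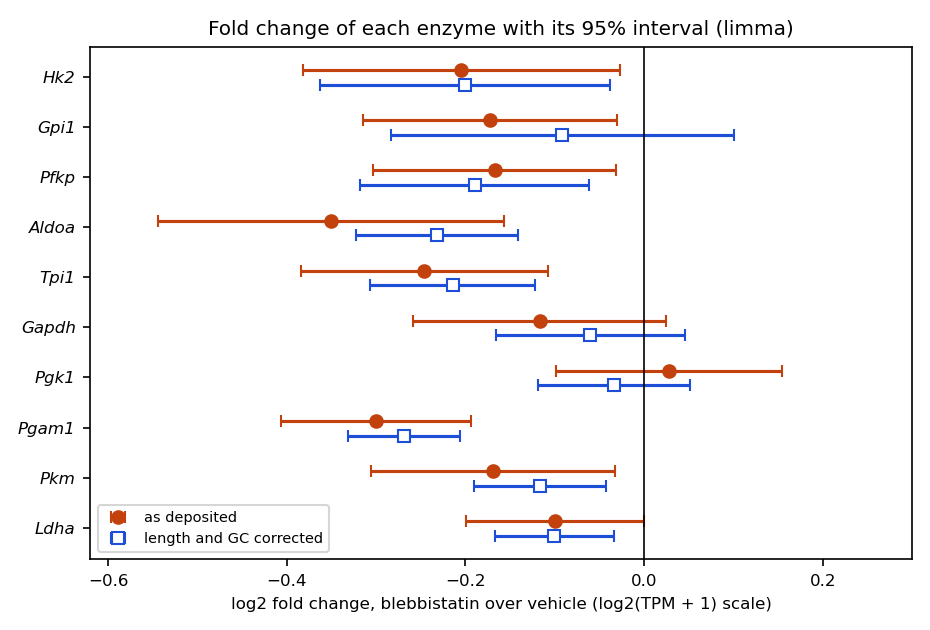
Log2 fold change of blebbistatin over vehicle on the log2(TPM + 1) scale (horizontal axis) for the 10 enzymes in pathway order, with 95% intervals from limma, from deposited TPM (filled circles) and with length and GC content corrected for (open squares). Pgam1 is at -0.30 and -0.27 in the 2 fits, Aldoa moves to -0.23 after the correction, and the Pgk1 interval spans 0 in both.

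The median enzyme was below its vehicle mean in every treated library. Against the vehicle mean, the median deviation of the 10 on the log2(TPM + 1) scale was -0.21 in blebbistatin 1, -0.16 in blebbistatin 2 and -0.17 in blebbistatin 3, and it lay between -0.01 and 0.02 in the vehicle libraries. Of the 10 enzymes 9, 10 and 9 were below their vehicle mean in blebbistatin 1, 2 and 3. The enzymes differed in which treated library was lowest, which was blebbistatin 1 for Hk2, Aldoa, Tpi1, Gapdh, Pgam1, Pkm and Ldha, blebbistatin 2 for Gpi1 and Pgk1, and blebbistatin 3 for Pfkp. Members share libraries and are not replicates of the treatment.

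**Figure D3:**
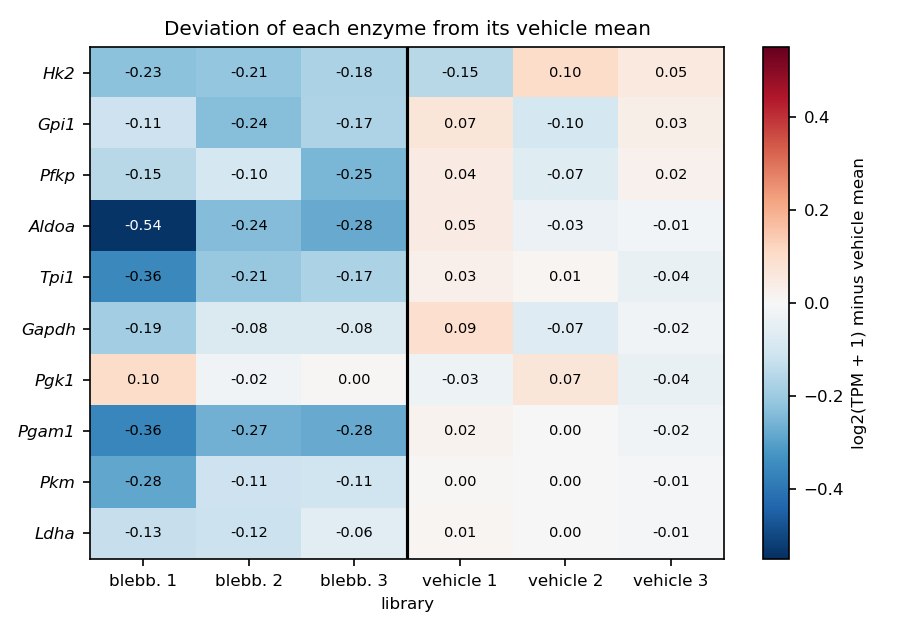
Deviation of log2(TPM + 1) from the vehicle mean (colour and printed value) for the 10 enzymes (rows, pathway order) in each library (columns). Blebbistatin 1 holds the lowest value, -0.54 for Aldoa, while its Pgk1 cell is at 0.10.

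Transcript GC content moved with the treated libraries over all tested genes. In the 1331 genes richest in GC the median deviation from the vehicle mean was -0.39 in blebbistatin 1, -0.01 in blebbistatin 2 and -0.18 in blebbistatin 3, and near 0 in the vehicle libraries. In the 1332 poorest in GC it was 0.29, 0.03 and 0.11 in blebbistatin 1, 2 and 3. The enzymes had GC contents of 48.7% to 57.2%, and 9 of the 10 were above the median of tested genes, 50.3%. By rising GC content, log2 fold changes were 0.03 for Pgk1 (48.7%), -0.17 for Pfkp (50.4%) and -0.10 for Ldha (51.9%). Then came -0.20 for Hk2 (52.7%), -0.25 for Tpi1 (53.7%) and -0.30 for Pgam1 (54.0%). The richest were Pkm (54.6%) at -0.17, Gapdh (55.2%) at -0.12, Gpi1 (55.8%) at -0.17 and Aldoa (57.2%) at -0.35. Whether the fold changes follow GC content was not tested. In blebbistatin 2, where the trend was nearly flat, the median deviation of the 10 was -0.16. Corrected for length and GC content, it was -0.18, -0.17 and -0.13 in blebbistatin 1, 2 and 3.

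When length and GC content were corrected for by loess within each library, 3 of the 10 enzymes fell and 0 rose, where 1.52% of 13317 genes were called lower and 2.52% higher. These were Pgam1 (log2 fold change -0.27, adjusted p = 0.010), Aldoa (-0.23, adjusted p = 0.028) and Tpi1 (-0.21, adjusted p = 0.035), all by limma. The corrected values of Gpi1 (-0.09, adjusted p = 0.53) and Gapdh (-0.06, adjusted p = 0.45) moved towards 0. Those of Hk2 (-0.20) and Ldha (-0.10) changed little, and neither passed, nor did Pfkp (-0.19, adjusted p = 0.10) or Pkm (-0.12, adjusted p = 0.089). The corrected median of the 10 was -0.15.

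**Figure D4:**
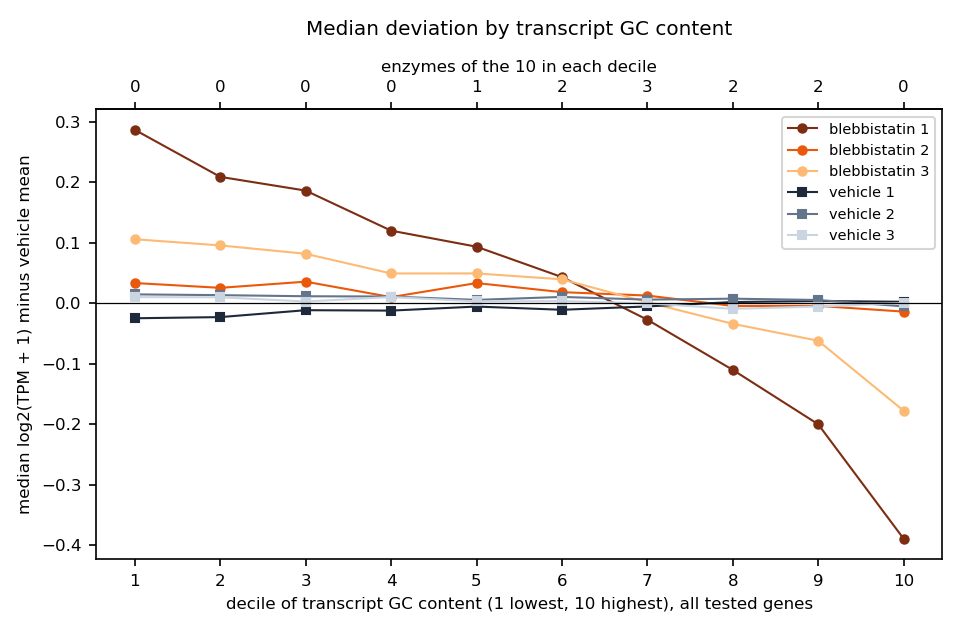
Median deviation of log2(TPM + 1) from the vehicle mean (vertical axis) over all tested genes in 10 equal bins of transcript GC content (horizontal axis), with 1 line per library and the number of the 10 enzymes in each bin along the top. Blebbistatin 1 runs from 0.29 to -0.39 and blebbistatin 3 from 0.11 to -0.18, while blebbistatin 2 and the vehicle libraries stay near 0, and no enzyme lies in the last bin.

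Other measures also differed between the groups. Mitochondrially encoded genes took 9.14%, 7.21% and 7.33% of TPM in blebbistatin 1, 2 and 3, against 6.89%, 6.58% and 6.87% in vehicle 1, 2 and 3. With median-ratio scaling, under which the median of all genes was 0.00, that of the enzymes was -0.20. The part of these shares in the enzymes' values was not tested. Of all tested genes 1.4% were called higher. Of 6 platelet markers 5 reached 1 TPM and 4 were called higher. Their summed level was 109 to 128 TPM in blebbistatin libraries and 49.3 to 58.5 TPM in vehicle libraries. The 10 B cell markers, 6 of them at 1 TPM or more, summed to 637 to 731 TPM with blebbistatin and 616 to 636 TPM with vehicle, with 2 called higher. Cells of both kinds also use glycolysis, and their part in the enzymes' values was not tested. Of 3 NK cell markers, Ncr1, Klrb1c and Eomes, only 1 reached 1 TPM. The 3 summed to 24.0 to 27.1 TPM with blebbistatin and 29.9 to 34.1 TPM with vehicle, with none called. That sum is mainly the level of 1 gene and does not describe NK cell content. Of 3 neutrophil markers 0 reached 1 TPM. S100a9 and Ly6g were at 0 in every library, and the 3 together came to at most 0.43 TPM, in a vehicle library.

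Near-identical processed copies elsewhere in the genome can share reads with some of the enzymes. For Gapdh, 183 annotated loci matched its transcripts at 90% identity or more over at least 50% of their length. Together these loci were assigned 2984, 3331 and 3374 TPM in blebbistatin 1, 2 and 3 and 3549, 3393 and 3368 TPM in vehicle 1, 2 and 3, or 102% of the Gapdh row. The level of the Gapdh row is uncertain to that extent, and with it the rank of Gapdh, its place below Ldha and the summed share of the enzymes. Gene and copies together averaged 6358 ± 355 TPM with blebbistatin and 6831 ± 292 TPM with vehicle (SD, n = 3 each), a log2 ratio of means of -0.10, and 0 of the 44 copies tested were called. Ldha with its own copies averaged 3628 TPM with blebbistatin and 3886 TPM with vehicle, below Gapdh with its copies.

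Pgam1 had 3 such copies, of which Pgam1-ps2 on chromosome 7, 100% identical over the matched stretch, reached 82.6 TPM with blebbistatin and 97.6 TPM with vehicle. Added to Pgam1 they gave 836, 885 and 886 TPM with blebbistatin and 1088, 1061.5 and 1048 TPM with vehicle, and the groups stayed apart. The copies of Pgk1 came to 2.73% of its level, and those of each other enzyme to less than 1%. Exons of other genes overlapped 15.3% of Pkm, 11.5% of Gpi1 and 5.58% of Pfkp. The gene over Pkm lies on the same strand, those over Gpi1 and Pfkp on the opposite one. Whether the libraries mark strand was not tested, so reads in these overlaps cannot be assigned with certainty in either case.

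Of the isozymes that could replace a member and of enolase, the step between Pgam1 and Pkm, 13 of 22 genes on the list were tested. Of these 1 rose, Ldhb, and 0 fell, where 1.4% of all tested genes rose and 0.426% fell. Ldhb, the heart-type lactate dehydrogenase subunit, which is associated with lactate oxidation, had 48.8, 42.6 and 47.0 TPM in blebbistatin 1, 2 and 3, against 27.1, 23.0 and 26.6 TPM in vehicle 1, 2 and 3. The groups were well apart, with a log2 fold change of 0.83 (SE 0.09, limma adjusted p = 0.016) and 0.85 after the length and GC correction (adjusted p = 0.011). Ldha still made up 98.6%, 98.8% and 98.8% of lactate dehydrogenase TPM with blebbistatin, against 99.3%, 99.4% and 99.3% with vehicle.

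Hk1, the constitutive hexokinase, stood at 125 ± 2.97 TPM with blebbistatin and 119 ± 9.33 TPM with vehicle (SD, n = 3 each), above Hk2 in both groups. It held 62.5%, 62.8% and 62.4% of hexokinase TPM in the blebbistatin libraries and 62.2%, 57.4% and 55.1% in the vehicle libraries, with vehicle 1 next to the treated libraries. The Hk1 levels themselves overlapped (log2 fold change 0.07, adjusted p = 0.58 by limma). Pfkl, the liver-type phosphofructokinase subunit, had 148, 183 and 166 TPM with blebbistatin and 205, 213 and 213 TPM with vehicle (log2 fold change -0.35, adjusted p = 0.079 by limma; -0.24, adjusted p = 0.024 after the length and GC correction). It also passed without blebbistatin 2 (-0.42, adjusted p = 0.021). Pfkm, the muscle-type subunit, averaged 26.3 TPM with blebbistatin and 26.2 TPM with vehicle. Pfkp remained the main phosphofructokinase subunit, at 67.8%, 64.3% and 63.7% of the step with blebbistatin and 64.4%, 61.7% and 63.2% with vehicle.

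Eno1, the main enolase, had 2529.7, 3036.5 and 2844 TPM with blebbistatin, against 3155, 3073 and 3081 TPM with vehicle. The groups did not overlap and the log2 fold change was -0.15 (limma, adjusted p = 0.25). It was -0.08 without blebbistatin 1 and -0.09 after the length and GC correction. Eno3, the muscle-type enolase, averaged 70.5 ± 4.34 TPM with blebbistatin and 56.6 ± 1.94 TPM with vehicle (SD, n = 3 each; log2 fold change 0.31, adjusted p = 0.067 by limma), and passed after the length and GC correction (0.36, adjusted p = 0.041). Eno2, the neuronal enolase, stood at 4.19 TPM with blebbistatin and 2.89 TPM with vehicle (0.41, adjusted p = 0.16). Eno1b, a retrogene close to Eno1, had a log2 fold change of -0.10, Aldoc, the brain-type aldolase, -0.11 and Pgam2, the muscle-type mutase, 0.29, and none of them passed. Hk3, a hexokinase of blood cells, had 1.28, 1.53 and 0.966 TPM with blebbistatin and 1.10, 1.47 and 1.18 TPM with vehicle, and overlapped. Adpgk, a glucokinase that uses ADP, and Pgam5, a mitochondrial phosphatase of the mutase fold, did not pass either, at -0.24 and 0.41. Adpgk and Pfkl were lower after the correction (-0.31, adjusted p = 0.035 for Adpgk).

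**Figure D5:**
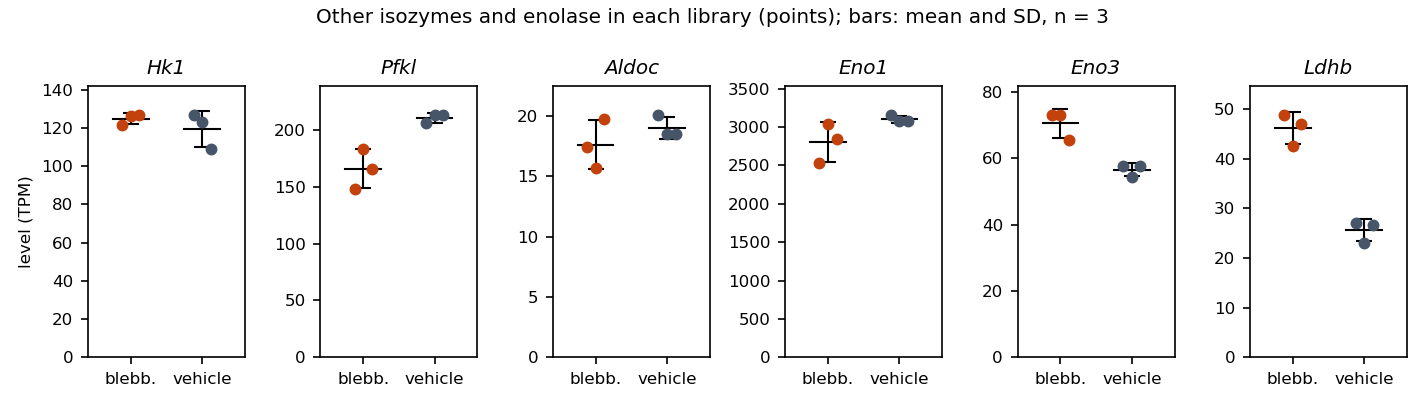
Level in TPM (vertical axes, from 0) of other isozymes and of enolase in each blebbistatin and vehicle library, with points for libraries and bars for the mean and SD of 3. Ldhb is higher in every blebbistatin library (42.6 to 48.8 TPM) than in any vehicle library (23.0 to 27.1 TPM), and Hk1 and Aldoc overlap.

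Genes on either side of the enzymes were counted in the same fit, which called 0.426% of all tested genes lower and 1.4% higher. Of 8 glucose and lactate transporter genes tested 2 fell and 0 rose: Slc2a1, the glucose transporter GLUT1, at 103 ± 10.4 TPM with blebbistatin and 153 ± 4.97 TPM with vehicle (SD, n = 3 each; log2 fold change -0.57, adjusted p = 0.028 by limma), and Slc16a3, which exports lactate, at 142 ± 22.1 TPM with blebbistatin and 215 ± 5.51 TPM with vehicle (-0.60, adjusted p = 0.046). Slc16a1, a second lactate carrier (-0.20, adjusted p = 0.092), and Slc2a3, the glucose transporter GLUT3 (-0.18, adjusted p = 0.42), did not pass. Slc16a1 was lower after the length and GC correction (-0.35, adjusted p = 0.032), making 3 transporters lower, where 1.52% of all genes in that fit were. Slc2a3 was at -0.05 without blebbistatin 2. Of 20 HIF1 pathway genes 1 fell and 0 rose, Egln3, an oxygen-sensing prolyl hydroxylase (-0.50, adjusted p = 0.020). At an unadjusted p under 0.05, 8 of the 20 were lower and 2 higher, where 9.99% of tested genes were lower and 12.9% higher. For 6 all treated libraries lay below all vehicle libraries and for 3 above, against 13% and 18% of tested genes. After the length and GC correction 2 were lower, Egln3 and Ero1l, an oxidase of the endoplasmic reticulum (-0.35, adjusted p = 0.011). Hif1a itself stood at 173 ± 14.9 TPM with blebbistatin and 146 ± 12.5 TPM with vehicle (SD, n = 3 each; 0.24, limma adjusted p = 0.17). Its groups overlapped, and the corrected value was 0.10 (adjusted p = 0.47). Myc stood at 154 ± 16.6 TPM with blebbistatin and 155 ± 5.60 TPM with vehicle. Ldhb, Slc2a1, Slc16a3 and Egln3 each lost their call without blebbistatin 3 and without vehicle 1, 2 or 3, with adjusted p by limma of 0.059 to 0.17. With no minimum level and with no trend, Slc2a1 (adjusted p = 0.068 and 0.053) and Slc16a3 (adjusted p = 0.11 and 0.079) lost theirs too. Slc16a3 also lost it with median-ratio scaling (adjusted p = 0.051) and quantile normalization (adjusted p = 0.058).

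Of 2 gluconeogenesis genes tested G6pc3, the ubiquitous glucose 6-phosphatase subunit, fell (log2 fold change -0.33, adjusted p = 0.046 by limma), where 0.426% of all tested genes did. It lost its call without blebbistatin 1 or 3 or any vehicle library (adjusted p of 0.070 to 0.17), and after the length and GC correction (adjusted p = 0.057). With no minimum level, quantile normalization and no trend its adjusted p was 0.068, 0.052 and 0.067. In the remaining lists no gene passed: 0 of 15 glycolysis regulators, 0 of 9 pentose phosphate genes, 0 of 8 genes of pyruvate entry into mitochondria, 0 of 9 genes of the NADH shuttles, 0 of 16 genes of the citric acid cycle and 0 of 12 genes of the glycogen and hexosamine branches, by limma. At an unadjusted p under 0.05, 2, 1, 1, 3, 0 and 1 of these were higher and 1, 4, 1, 1, 1 and 1 lower. Of all tested genes 12.9% were higher and 9.99% lower at that threshold. The medians of these lists ran from -0.05 for the pentose phosphate genes to 0.13 for the regulators, and after the length and GC correction from -0.12 for pyruvate entry to 0.10 for the regulators. Lists with a call had medians of -0.19 for transporters, -0.09 for HIF1 pathway genes, 0.0018 for isozymes and enolase and -0.0029 for gluconeogenesis. With the correction they were -0.17, -0.12, 0.05 and 0.09, while the medians of the 10 enzymes were -0.17 and -0.15. With that correction 1 gene of the citric acid cycle, Idh3a, and 1 of the glycogen and hexosamine branches, Pgm2, were lower, where 1.52% of all genes were.

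Abundant genes of these lists also missed the threshold. Tkt, the transketolase of the pentose phosphate pathway, had a log2 fold change of -0.22, Mdh2, mitochondrial malate dehydrogenase, -0.25 and Pgm2, a phosphoglucomutase, -0.19, while Pdhb, a subunit of pyruvate dehydrogenase, was at 0.07. Without blebbistatin 1, Tkt was at -0.12 and Mdh2 at -0.15, and without blebbistatin 2 Mdh2 passed (-0.35, adjusted p = 0.048 by limma). Exons of another gene overlap 13.6% of Pgm2. Cd8a averaged 429 TPM with blebbistatin and 412 TPM with vehicle, and Cd3e, a chain of the T cell receptor complex, 302 TPM with blebbistatin and 315 TPM with vehicle. The proliferation marker Mki67 averaged 252 TPM with blebbistatin and 261 TPM with vehicle, and Myh9, a non-muscle myosin II heavy chain, 377 TPM with blebbistatin and 371 TPM with vehicle. None of the 4 passed.

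Among 6532 other genes averaging 20 TPM or more, the 5 whose 6 library deviations were closest to the median profile of the enzymes were Cndp2, a dipeptidase, Ddx39b, an RNA helicase, Txnrd1, thioredoxin reductase, Lgals1, galectin-1, and Ccnf, cyclin F. Their mean absolute difference from that profile over the 6 libraries was 0.017 to 0.019 on the log2 scale. Their log2 fold changes were between -0.20 and -0.16, and none passed.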

How the data were processed

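HISAT2 2.1.0, StringTie 1.3.4, DESeq2 1.22.2 and build mm10 are named in the submitters' processing notes, without roles or settings. Per the labels, libraries were made with a TruSeq kit and sequenced on a NovaSeq instrument. The deposited TPM values sum to 1000000 in each library, the deposited FPKM values are fragments per kb scaled to library size, and the deposited coverage signal is the mean read depth of a gene, not normalized. With 300 aligned bases per fragment, the commonest number in genes of low level, coverage over FPKM gave the implied fragments, and counting errors drawn from it cover counting only.

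Groups and replicate numbers came from the labels. No count table was used: log2(TPM + 1) was tested for the 13372 genes averaging 1 TPM or more, with limma 3.58.1 (R 4.3.3), a moderated variance with a trend on level, and Benjamini-Hochberg adjustment over all of them. This scale understates the change of low genes. The enzymes, lists, tests and alternatives were chosen with earlier results of these data known. Genes named were the 10 enzymes, their isozymes of at least 1 TPM, a few set genes, up to 3 genes past the threshold from each list or else the one with the highest level, and the 5 genes most like the enzymes. Others were named after their values were seen. Not every gene chosen in this way is reported here. Exon overlaps, transcript lengths and GC contents came from GENCODE M21 for GRCm38, which held 98.9% of gene identifiers, and 99.6% of tested genes could be corrected. Copies were found with blastn 2.17.0. Promoters came from RefSeq, GRCm38.p6, where all 10 enzymes matched. The fit was run on simulated data with independent noise in each gene and no GC trend. It recovered 77 of 100 genes changed 1.25-fold and 100 of 100 changed 1.5-fold, with 13 false calls. With no gene changed there were 0 calls. Trends shared across a library, as in blebbistatin 1 and 3, were not part of that simulation.

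Alternatives were the pseudocount (0.1 or 5), the minimum level (none or 5 TPM), FPKM, median-ratio and quantile scaling, limma without the trend or with the robust option, a replicate block, a loess correction for length and GC with span 0.3, protein-coding genes only and leaving out each library. Plots used matplotlib 3.10.9 (Python 3.11.15).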

Additional observations from a re-analysis of the deposited data

How the results depend on the processing

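The median log2 fold change of the 10 enzymes, -0.17, was below 0 under all 18 alternatives run. It was -0.20 with median-ratio scaling, and ran from -0.20 to -0.16 when each library was left out, lowest without blebbistatin 2. The number of enzymes called lower was 1, and became 0 with no minimum level, with quantile normalization, with no trend and with the replicate block, 3 after the length and GC correction, and 0 to 2 when each library was left out. Over all genes 244 were called, 49 with no minimum level, 160 with no trend, 0 with the replicate block, 539 after the length and GC correction (336 higher and 203 lower), and 3 to 1090 when each library was left out, with 120, 1090 and 3 without blebbistatin 1, 2 and 3 and 13, 11 and 7 without vehicle 1, 2 and 3. Without blebbistatin 2, 496 were higher and 594 lower. The cause of these moves was not tested. Adjusted p for Pgam1 ran from 0.010 to 0.16 over the 18, and its log2 fold change from -0.33 to -0.24. With the replicate block it was 0.14 by limma, and no gene named kept a call. The same-numbered libraries did not deviate together, with correlations of 0.011, -0.037 and -0.034 across genes, so the numbers were not taken to pair libraries.

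Some uncalled values changed sign. Pgk1 was -0.00023 with median-ratio scaling, -0.034 after the length and GC correction and between -0.0083 and 0.062 with each library left out. Hk3 was -0.0040 with a pseudocount of 0.1, -0.015 with median-ratio scaling, -0.066 with quantile normalization and -0.084 to 0.097 with each library left out. Pfkm was -0.0045 with FPKM, -0.025 with median-ratio scaling and -0.033 to 0.051 with each library left out. Myc was 0.012 with quantile normalization, 0.046 after the length and GC correction and -0.11 to 0.036 with each library left out. Myh9 was -0.0059 with median-ratio scaling and -0.030 to 0.082 with each library left out. After the length and GC correction Cd8a was -0.029 and Pdhb -0.010, and Mki67 was 0.0095 with quantile normalization.

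The counting error of Hk2, the lowest enzyme, was at most 3.91% per kb, and precision is limited by 3 libraries per group. An exact permutation test of 3 against 3 cannot go below 0.10.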

Other observations

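Some genes near the pathway, described here because of their values, varied more between libraries of a group than the 10 enzymes did. Pgp, the phosphatase that clears 2-phosphoglycolate, had 27.4, 118 and 42.7 TPM in blebbistatin 1, 2 and 3, against 149, 153 and 149 TPM in vehicle 1, 2 and 3. All 3 treated libraries were lower, blebbistatin 2 far less so than the others, and the log2 fold change of -1.51 did not pass (adjusted p = 0.13 by limma). After the length and GC correction it was -1.44 (adjusted p = 0.11). Without blebbistatin 2 it was -2.10 and passed (adjusted p = 0.010 by limma), and without blebbistatin 1 it was -1.07 and did not.

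Slc25a12, a mitochondrial carrier of aspartate and glutamate in the malate-aspartate shuttle, had 50.4, 56.1 and 54.1 TPM with blebbistatin and 27.1, 46.4 and 24.6 TPM with vehicle. Pgam5 had 48.6, 46.6 and 48.4 TPM with blebbistatin and 30.8, 48.1 and 30.8 TPM with vehicle. In both genes vehicle 2 stood near the treated libraries while vehicle 1 and 3 lay well below. Exons of another gene overlap 58.1% of Pgam5, and none overlap Slc25a12.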
